A study of Homo sapiens with 4 samples.

Results

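The ABC drug efflux transporters described here are 8 genes, ABCB1, ABCC1, ABCC2, ABCC3, ABCC4, ABCC5, ABCC10 and ABCG2, chosen by symbol from the 28278 genes in the deposited table. All 8 were present in the table and all 8 passed the filter on low counts. ATP-binding cassette (ABC) transporters are membrane proteins that use the energy of ATP hydrolysis to move lipids, metabolites and drugs across membranes. The members listed here sit mostly in the plasma membrane and carry compounds out of the cell. In liver they pass conjugated metabolites and drugs into bile or blood, and in tumours they are known for lowering the intracellular level of cancer drugs. ABCB1 and ABCG2 proteins are known to accept sorafenib, a multikinase inhibitor used in liver cancer, as a substrate.

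The 4 libraries measured polyA RNA from cells labelled HepG2, a human hepatocellular carcinoma line, that carried lentiviral short hairpin RNAs. One library came from cells with the Control hairpin, 1 each from cells with ATF7IP shRNA-1 and ATF7IP shRNA-2 (hairpins 1 and 2), and 1 from cells with SETDB1 shRNA. SETDB1 is a histone H3 lysine 9 methyltransferase and ATF7IP its partner protein. All 4 populations, Control included, received 10 µM sorafenib for 48 hours, so no library shows these genes without the drug. Neither Control nor SETDB1 knockdown was repeated, and the 2 ATF7IP libraries came from different hairpins, so the spread between them (n = 2) mixes hairpin, cell population and library. Nothing in the labels says that cultures were repeated.

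Library totals were between 70236882 and 73791097 estimated counts, at an assumed 4 counts per sequenced fragment. ATF7IP was at 59.1 CPM (counts-per-million of a library) in Control, 18.3 and 18.8 with its own hairpins and 97.8 with the SETDB1 hairpin. SETDB1 was at 47.7 CPM in Control, 52.1 and 46.8 with the ATF7IP hairpins and 11.99 with its own. Both targets were lowest in the libraries labelled as their knockdown. The markers of the labelled cell type were nearly absent. Of 17 hepatocyte and HepG2 marker genes, 8 had no count in any library, ALB, AFP, FOXA2 and GPC3 among them, and 15 stayed at or under 12 counts in all 4. Their summed level was between 0.417 and 0.942 CPM, and the gene for the liver factor HNF4A did not exceed 0.113 CPM. KRT7, a keratin of bile duct and other simple epithelia, was at 1007 to 1871 CPM, and the collagen gene COL3A1 at 155 to 335 CPM. The cells are therefore called by their label only, and whether the values below hold for liver cancer cells was not tested. In such bulk RNA, fewer cells with a transcript and less of it per cell cannot be told apart.

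Per length of exon, ABCC1 and ABCC2 were the most abundant of the 8 transporters. ABCC1 encodes an exporter of glutathione conjugates, and ABCC2 the exporter of conjugated bilirubin and drugs into bile. ABCC1 was at 20.6 CPM per kilobase of exon with the Control hairpin, 20.4 with ATF7IP shRNA-1, 22.6 with ATF7IP shRNA-2 and 20.3 with the SETDB1 hairpin. ABCC2 was at 16.1, 14.8, 22.8 and 23.0 CPM per kilobase in the same order of libraries. ABCC1 was the higher of these 2 in Control and ATF7IP shRNA-1, and ABCC2 the higher in ATF7IP shRNA-2 and SETDB1 knockdown, so their order was not fixed. ABCC4 and ABCC3 followed, with means over the 4 libraries of 12.7 and 10.2 CPM per kilobase. ABCC3 exceeded ABCC4 in Control, while ABCC4 exceeded ABCC3 in the 3 knockdown libraries. ABCC5 came next, with a mean of 5.37 CPM per kilobase, and was 1.55 to 2.90 times ABCG2 in every library.

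ABCG2, ABCB1 and ABCC10 formed the lowest group, with means of 2.71, 2.58 and 2.34 CPM per kilobase. Their order changed between libraries. ABCB1 was the lowest of the 8 in Control and both ATF7IP hairpins, and ABCC10 in SETDB1 knockdown. The highest mean level per length was 8.96 times the lowest. The 4 most abundant genes, ABCC1 to ABCC4, made up 81.9% of the summed level per length with the Control hairpin, 85.3% with ATF7IP shRNA-1, 84.7% with ATF7IP shRNA-2 and 79.9% with the SETDB1 hairpin. With the SETDB1 hairpin ABCC3 and ABCC5 were nearly level, at 6.47 and 6.41 CPM per kilobase. The summed level of all 8 was 72.2 CPM per kilobase with the Control hairpin, 67.8 with ATF7IP shRNA-1, 83.4 with ATF7IP shRNA-2 and 80.9 with the SETDB1 hairpin. The 2 ATF7IP libraries therefore lay on either side of the other 2 in total transporter RNA.

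ABCB1 and ABCG2 were the members that differed most between the knockdowns. ABCB1 (chromosome 7, 87503017 to 87713295, minus strand, GRCh38, RefSeq) encodes P-glycoprotein, which exports many hydrophobic drugs. ABCG2 (chromosome 4, 88090264 to 88231626, minus strand) encodes BCRP, a dimeric exporter of drugs and urate. The 250 bases before a transcript start of each are shown because these 2 genes had the same order of libraries. They are printed beside the same window of ABCC2 and ABCC4, a canalicular and a basolateral exporter that did not follow that order. Sequences are from RefSeq on GRCh38.p14, which held 12 windows for 6 of the 8 genes. Capitals mark matches on either strand to 4 motifs, the antioxidant response element core TGACNNNGC, the AP-1 site TGANTCA, the CCAAT box CCAAT and the GC box GGGCGG. RefSeq gives ABCB1 and ABCG2 more than 1 start, and gene counts do not tell which was used. The windows shown, 1 of 2 for ABCB1 and 1 of 5 for ABCG2, were chosen after all had been searched. 
ABCB1, chr7:87600885-87601134, minus strand: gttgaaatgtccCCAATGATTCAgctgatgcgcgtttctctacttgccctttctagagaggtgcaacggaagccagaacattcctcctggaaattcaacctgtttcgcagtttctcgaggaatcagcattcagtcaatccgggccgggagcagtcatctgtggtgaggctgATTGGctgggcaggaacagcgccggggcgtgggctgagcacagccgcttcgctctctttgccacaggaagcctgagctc
ABCG2, chr4:88158860-88159109, minus strand: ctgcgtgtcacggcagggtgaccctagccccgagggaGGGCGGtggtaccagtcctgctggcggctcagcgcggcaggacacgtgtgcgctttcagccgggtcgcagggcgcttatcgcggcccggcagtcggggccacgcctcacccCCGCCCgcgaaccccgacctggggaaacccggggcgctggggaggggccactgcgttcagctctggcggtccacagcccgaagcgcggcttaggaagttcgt
ABCC2, chr10:99782390-99782639, plus strand: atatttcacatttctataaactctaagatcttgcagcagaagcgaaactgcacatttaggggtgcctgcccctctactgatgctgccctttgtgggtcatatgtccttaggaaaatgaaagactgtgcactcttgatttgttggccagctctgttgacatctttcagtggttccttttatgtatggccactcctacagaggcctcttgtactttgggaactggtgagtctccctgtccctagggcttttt
ABCC4, chr13:95301452-95301701, minus strand: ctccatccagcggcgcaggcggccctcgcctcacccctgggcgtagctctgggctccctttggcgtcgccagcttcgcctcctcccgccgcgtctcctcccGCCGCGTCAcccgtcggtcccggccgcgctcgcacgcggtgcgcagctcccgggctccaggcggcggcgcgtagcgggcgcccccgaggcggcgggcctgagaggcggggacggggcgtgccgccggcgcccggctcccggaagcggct

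The ABCB1 window held 2 CCAAT boxes, with first letters 238 and 79 bases before the start, and an AP-1 match at 234 that overlaps the first of them by its first letter. The inverted CCAAT box at 79 is read as ATTGG on the strand shown. The ABCG2 window held 2 GC boxes, at 213 and 102, and no CCAAT, AP-1 or antioxidant match. The ABCC4 window held 1 antioxidant match, read as GCCGCGTCA at 149, and the ABCC2 window none of the 4 motifs. GC content was 55.6% in ABCB1, 72.4% in ABCG2, 45.6% in ABCC2 and 80.4% in ABCC4, against a median of 58% over all windows. Among all 35116 windows of this length, 32.0% held a CCAAT box, 42.6% a GC box, 10.9% an antioxidant match and 6.57% an AP-1 match. ABCB1 and ABCG2 thus shared no motif of the 4 in the windows shown. The ABCB1 window not shown held none of the 4 motifs. An ABCG2 window that overlaps the one shown held the same 2 GC boxes, at 163 and 52. The remaining ABCG2 windows held none.

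ABCB1 was at 13.1 CPM with the Control hairpin, 8.90 with ATF7IP shRNA-1, 9.52 with ATF7IP shRNA-2 and 19.5 with the SETDB1 hairpin, from 909, 628, 731 and 1390 counts. ABCG2 was at 14.5, 8.94, 10.3 and 18.5 CPM, from 1009, 631, 794 and 1313 counts. In both genes SETDB1 knockdown was highest, Control lay in between, and the 2 ATF7IP libraries were lowest and close together. The ATF7IP mean was 9.21 ± 0.439 CPM for ABCB1 and 9.64 ± 0.990 CPM for ABCG2 (SD, n = 2). ABCB1 and ABCG2 were the 2 of 8 transporters with SETDB1 knockdown above Control and both ATF7IP libraries below it. This order of libraries was held by 12% of the 13132 tested genes with a mean of at least 1 CPM. Each was the nearest of the other 7 transporters in profile to the other, with a root mean square distance of 0.09 in centred log2 CPM over the 4 libraries.

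SETDB1 knockdown against ATF7IP knockdown asked whether loss of the methyltransferase and loss of its partner gave different transcript levels. For ABCB1 the log2 fold change was 1.08 ± 0.28 (SE; 95% interval 0.45 to 1.72; edgeR adjusted p = 0.264). For ABCG2 it was 0.94 ± 0.29 (SE; 95% interval 0.29 to 1.58; edgeR adjusted p = 0.340). ABCB1 in SETDB1 knockdown was 2.2 times ATF7IP shRNA-1 (95% exact counting interval 1.82 to 2.67) and 2.05 times shRNA-2 (1.71 to 2.47). ABCG2 was 2.06 times shRNA-1 (1.70 to 2.51) and 1.78 times shRNA-2 (1.49 to 2.14). These counting intervals rest on the assumed 4 counts per fragment and leave out the spread between cultures. Neither gene passed the test after adjustment over the 16900 genes tested. ABCB1 was the 1 member at least 2-fold apart from both ATF7IP libraries, a size that 2.1% of the tested genes reached, and with total counts in place of scaled library sizes the number was 0.

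Levels of other cell types' markers and of ribosomal RNA also differed between the libraries, and their part in these results was not tested. Stellate and fibroblast markers, of which 6 of 8 had a mean of at least 1 CPM, summed to 487 CPM with the Control hairpin, 264 with ATF7IP shRNA-1, 227 with ATF7IP shRNA-2 and 299 with the SETDB1 hairpin. Against Control, all 6 were below 0 in ATF7IP knockdown, and 1 was above and 5 below 0 in SETDB1 knockdown. LUM, which encodes a matrix proteoglycan, was at 81.6, 26.0, 25.9 and 92.5 CPM. It passed the test between the knockdowns, with SETDB1 knockdown higher (edgeR adjusted p = 0.0247). DCN was at 12.8, 4.68, 5.30 and 12.2 CPM. These 2 matrix genes had SETDB1 knockdown near Control, and the other 4 had it below Control. COL3A1 was at 335, 191, 155 and 155 CPM, COL1A1 at 31.3, 27.7, 23.5 and 21.9, PDGFRB at 6.60, 2.48, 2.05 and 3.35, and ACTA2 at 18.9, 13, 15.8 and 14.3. COL1A2 and PDGFRA stayed at or under 12 counts in every library. Placenta-like markers summed to 452 CPM with the Control hairpin, 77.1 with ATF7IP shRNA-1, 22.1 with ATF7IP shRNA-2 and 199 with the SETDB1 hairpin. Most of this was ALPP, at 452, 73.9, 21.0 and 197 CPM, while CGA was at 0.518, 2.75, 0.729 and 1.64. Of the 4 blood and macrophage markers, CD68 was at 21.9, 24.2, 25.9 and 42.0 CPM and CD14 at 0.633, 0.921, 1.77 and 0.857. The other members did not follow CD68, with PTPRC at 0.230, 0, 0.0521 and 0.0984 CPM and CD3E without a count in any library. The 4 endothelial markers summed to 0.225 to 0.518 CPM. Of all counts, ribosomal RNA genes held 0.325% with the Control hairpin, 0.489% with ATF7IP shRNA-1, 0.408% with ATF7IP shRNA-2 and 0.721% with the SETDB1 hairpin.

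Against Control, ABCB1 and ABCG2 differed in opposite directions in the knockdowns, and the intervals included 0. In ATF7IP knockdown the log2 fold change was −0.51 ± 0.29 for ABCB1 (SE; 95% interval −1.15 to 0.14; edgeR adjusted p = 0.695). It was −0.59 ± 0.29 for ABCG2 (SE; 95% interval −1.24 to 0.06; edgeR adjusted p = 0.626). With the SETDB1 hairpin the log2 fold change was 0.58 ± 0.34 for ABCB1 (SE; 95% interval −0.18 to 1.3) and 0.35 ± 0.34 for ABCG2 (SE; 95% interval −0.42 to 1.11), with an edgeR adjusted p of 1 for both. These 2 comparisons share the Control library. The overlapping gene on the opposite strand of ABCB1, RUNDC3B, was at 0.104 to 0.705 CPM, small beside ABCB1 itself.

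ABCC3 differed the other way. ABCC3 (chromosome 17, 50634881 to 50692253, plus strand) encodes MRP3, which moves glucuronides and bile acids from hepatocytes back to blood. It was at 79.1 CPM with the Control hairpin, 70.5 with ATF7IP shRNA-1, 70.2 with ATF7IP shRNA-2 and 41.5 with the SETDB1 hairpin. SETDB1 knockdown was the low library, and the other 3 lay within 1.13 times of each other. Its log2 fold change in SETDB1 knockdown was −0.93 ± 0.28 against Control (SE; 95% interval −1.56 to −0.30; edgeR adjusted p = 0.875). Against ATF7IP knockdown it was −0.76 ± 0.25 (SE; 95% interval −1.32 to −0.20; edgeR adjusted p = 0.376). The level in SETDB1 knockdown was 0.525 times Control (95% exact counting interval 0.479 to 0.574). That interval rests on the assumed counts per fragment and leaves out the spread between cultures. The difference failed the adjusted test. Both comparisons rest on the same SETDB1 library. ABCC3 was the 1 transporter at least 1.5-fold from Control in SETDB1 knockdown, as were 8.98% of tested genes. ABCB1 and ABCC4 fell just short of that threshold, at 1.49 and 1.47 times Control. In ATF7IP knockdown ABCC3 was close to Control, with −0.17 ± 0.24 (SE; 95% interval −0.71 to 0.37; edgeR adjusted p = 0.918).

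ABCC2, ABCC4 and ABCC5 shared their high libraries, ATF7IP shRNA-2 and SETDB1 knockdown, but not the order of the others. ABCC2 (chromosome 10, 99782640 to 99852594, plus strand) was at 99.1 CPM with the Control hairpin, 91.2 with ATF7IP shRNA-1, 140.4 with ATF7IP shRNA-2 and 142 with the SETDB1 hairpin. ABCC5 (chromosome 3, 183919934 to 184017884, minus strand), an exporter of cyclic nucleotides and nucleotide analogues, was at 49.0, 43.9, 65.7 and 67.5 CPM. ABCC4 (chromosome 13, 95019835 to 95301451, minus strand), which exports cyclic nucleotides and bile acids, was at 63.2, 72.8, 89.9 and 92.8 CPM. In ABCC2 and ABCC5 the first ATF7IP hairpin was just below Control and the second well above it, and in ABCC4 both were above. These 3 of 8 transporters had both ATF7IP shRNA-2 and SETDB1 knockdown above Control and shRNA-1, a pattern that 15% of the 13132 tested genes with a mean of at least 1 CPM showed. The summed level of the 4 bile duct markers split the same libraries the other way. It was 1819 CPM with the Control hairpin, 1879 with ATF7IP shRNA-1, 1014 with ATF7IP shRNA-2 and 1057 with the SETDB1 hairpin. Nearly all of it was KRT7, at 1809, 1871, 1007 and 1048 CPM. SOX9 did not show this split, with 10.2 CPM in Control, 7.33 and 7.05 with the ATF7IP hairpins and 9.26 with the SETDB1 hairpin. KRT19 and EPCAM stayed at or under 12 counts. The part of these markers in the result was not tested. ABCC2 and ABCC5 were the nearest transporters to each other, at a distance of 0.03 in centred log2 CPM.

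The ATF7IP hairpins thus disagreed for these genes. ABCC2 in shRNA-2 was 1.54 times shRNA-1 (95% exact counting interval 1.45 to 1.64), ABCC5 1.5 times (1.37 to 1.64) and ABCC4 1.24 times (1.15 to 1.33). ABCB1, ABCC3 and ABCC1 differed less, at 1.07, 0.996 and 1.11 times. Of the 8 transporters, 7 were higher in shRNA-2 than in shRNA-1, with a median log2 difference of 0.19 against −0.01 over all tested genes. The share of all genes higher in shRNA-2 was not counted. Without regard to sign, the median difference was 0.19 for the 8, below the 0.29 of all tested genes. For tested genes with a mean of at least 5 CPM it was 0.23. As a group the transporters therefore differed between the hairpins no more than other genes did. With 1 library per hairpin, hairpin and library cannot be told apart.

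In ATF7IP knockdown the log2 fold change was 0.22 ± 0.31 for ABCC2 (SE; 95% interval −0.47 to 0.92; edgeR adjusted p = 0.913). It was 0.36 ± 0.26 for ABCC4 (SE; 95% interval −0.21 to 0.94; edgeR adjusted p = 0.783) and 0.16 ± 0.30 for ABCC5 (SE; 95% interval −0.51 to 0.83; edgeR adjusted p = 0.943). In shRNA-1 alone the log2 difference from Control was −0.12 for ABCC2 and −0.16 for ABCC5, so the direction for these 2 rested on shRNA-2. In SETDB1 knockdown the 3 genes were higher than Control by 0.52 ± 0.35 (ABCC2), 0.55 ± 0.29 (ABCC4) and 0.46 ± 0.34 (ABCC5) on the log2 scale (SE), each with an edgeR adjusted p of 1. The widest of these intervals, for ABCC2, ran from −0.28 to 1.31. Between SETDB1 and ATF7IP knockdown their log2 fold changes were 0.29, 0.19 and 0.30, each with an interval that included 0.

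ABCC1 and ABCC10 had the narrowest ranges. ABCC1 (chromosome 16, 15949143 to 16143053, plus strand) was at 136 CPM with the Control hairpin, 135 with ATF7IP shRNA-1, 149 with ATF7IP shRNA-2 and 134 with the SETDB1 hairpin. Its highest library was 1.11 times its lowest, a range of 0.15 in log2 CPM, and 2.33% of tested genes had a narrower one. The ABCC1 log2 fold change was 0.07 ± 0.25 with ATF7IP knocked down (SE; 95% interval −0.50 to 0.63; edgeR adjusted p = 0.979) and −0.02 ± 0.29 in SETDB1 knockdown (SE; 95% interval −0.67 to 0.64; edgeR adjusted p = 1). The intervals leave room for changes that these libraries could not show. ABCC10 (chromosome 6, 43427541 to 43451994, plus strand), an exporter known for transport of taxanes, was at 15.1, 11.7, 13.2 and 11.1 CPM. All 3 knockdown libraries were below Control. The ABCC10 log2 fold change was −0.28 ± 0.29 with ATF7IP knocked down (SE; 95% interval −0.93 to 0.38; edgeR adjusted p = 0.873) and −0.45 ± 0.34 in SETDB1 knockdown (SE; 95% interval −1.22 to 0.32; edgeR adjusted p = 1). DLK2, which overlaps ABCC10 on the opposite strand, was at 4.74 to 7.08 CPM, and unless counting used strand its reads could add to those of ABCC10.

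Over the 8 transporters, edgeR called 0 (adjusted p under 0.05) in each of the 3 comparisons, and so did DESeq2 and limma-trend. In ATF7IP knockdown against Control 0 of 8 were called and 0 had an unadjusted p under 0.05, where 0.0769% of all tested genes were called and 8.94% had such a p. In SETDB1 knockdown against Control 0 of 8 were called, where 0.071% of tested genes were, and 1 (ABCC3) had an unadjusted p under 0.05, against 4.71% of tested genes. In SETDB1 against ATF7IP knockdown 0 of 8 were called, where 0.166% of tested genes were. There 3 (ABCB1, ABCG2 and ABCC3) had an unadjusted p under 0.05, against 9.88% of tested genes. With so few genes called anywhere, a count of 0 among 8 is near the background and is no result about the transporters. The median log2 fold change of the 8 was −0.05 in ATF7IP knockdown, 0.40 in SETDB1 knockdown and 0.24 between them, against medians of 0.02, 0.00 and −0.02 over all tested genes. In SETDB1 knockdown 5 of 8 were above Control and 3 below, which is near the background. Of the 13132 tested genes with a mean of at least 1 CPM, 49.4% were above 0 there. By size alone, 0 of 8 were at least 2-fold from Control in ATF7IP knockdown (1.96% of tested genes) and 0 in SETDB1 knockdown (2.46%). At 1.5-fold the counts were 0 of 8 in ATF7IP knockdown (6.92% of tested genes) and 3 of 8 between the knockdowns (7.62%), which were ABCB1 and ABCG2 higher and ABCC3 lower in SETDB1 knockdown.

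**Figure D1:**
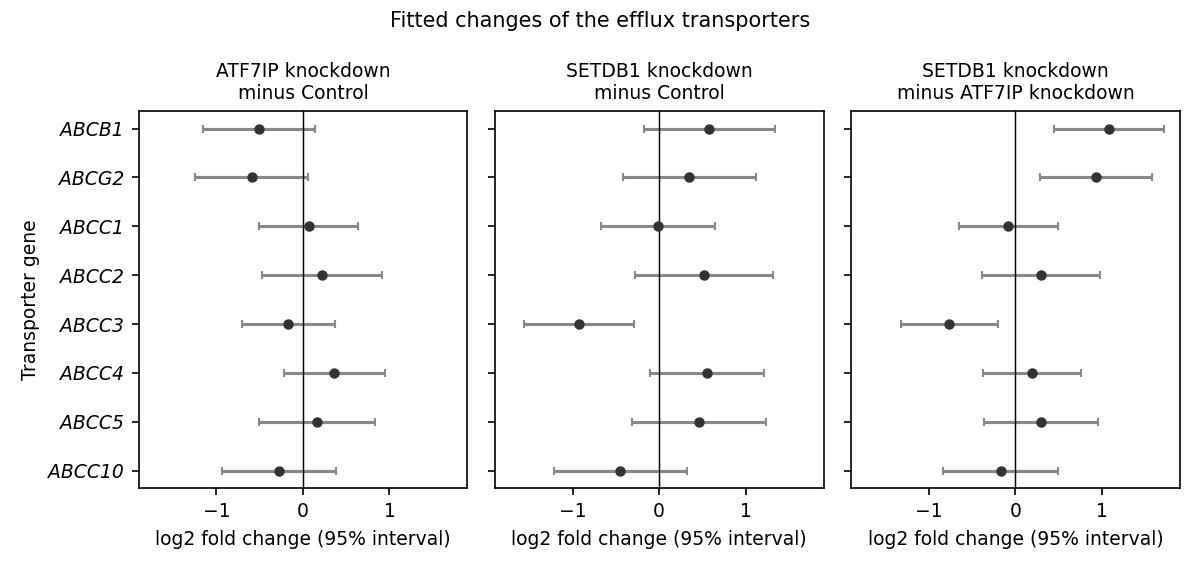
Fitted log2 fold changes (points) with 95% intervals (bars) of the 8 transporters in the 3 comparisons, from the edgeR fit on 4 libraries. Intervals exclude 0 for ABCC3 in SETDB1 knockdown against Control and for ABCB1, ABCG2 and ABCC3 between the knockdowns, before any adjustment over the 16900 genes tested.

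The genes closest in profile were looked up for the 3 transporters with the widest range, ABCB1, ABCG2 and ABCC3, among 11053 other tested genes whose mean reached 5 CPM. The measure was the root mean square distance of centred log2 CPM over 4 libraries. For ABCB1 they were ECM2 (distance 0.04) at 21.8, 15.4, 15.3 and 32.8 CPM and MYORG (0.05). For ABCG2 they were TPPP (0.03) and ARHGEF3 (0.03), the latter at 20.6, 12, 14.3 and 25.4 CPM. For ABCC3 they were STRADB (0.03) and TNIP1 (0.04), the latter at 82.7, 72.3, 73.5 and 45.5 CPM. With 4 libraries and 11053 genes, profiles this close are a description only.

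Other members of the ABC family gave the setting. Of 39 further ABC genes in the table, those for bile and related plasma membrane transport were nearly silent. The bile salt exporter gene ABCB11 did not exceed 0.0703 CPM, the phosphatidylcholine translocase gene ABCB4, the neighbour of ABCB1, did not exceed 0.158 CPM, and ABCC6, the neighbour of ABCC1, was at 0.430 to 0.791 CPM. ABCB5 was at 0.0651 to 0.609 CPM. That list of 10 genes also holds a lipid pump of another family, and the 1 gene with a mean above 1 CPM was that pump, the flippase gene ATP8B1, at 16.6, 10.1, 12.6 and 13.2 CPM. Among 15 ABCA and ABCG genes of lipid export, 7 had a mean of at least 1 CPM, and the sterol exporter genes ABCG5 and ABCG8 were at or under 0.0521 CPM. ABCA2 was at 84.2, 70.1, 54.9 and 56.2 CPM, ABCA3, a lipid carrier of lamellar bodies, at 25.8, 44.0, 52.9 and 34.3, and ABCA5 at 45.4, 44.0, 55.3 and 27.6.

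ABC genes of intracellular membranes were broadly present, with 10 of 11 at a mean of at least 1 CPM. The antigen peptide transporter genes TAP1 and TAP2 were at 67.7 to 104 CPM and 96.6 to 112 CPM, and the peroxisomal ABCD3 at 90.1, 69.5, 89.3 and 96.2 CPM. The soluble ribosome-associated ATPases ABCE1, ABCF1 and ABCF2 were at 227 to 313, 194 to 241 and 207 to 234 CPM. The median log2 fold change in SETDB1 knockdown was −0.21 for the 7 ABCA and ABCG genes and 0.05 for the 10 intracellular genes. It was 0.13 for the 4 ABCE and ABCF genes and 0.40 for the 8 efflux transporters. Over the 13132 tested genes with a mean of at least 1 CPM it was 0.00. The rise was not particular to the transporters, since 5 drug-metabolising enzyme genes had a median of 0.41. Medians were −0.04 for regulators of drug transporter genes, 0.07 for solute carriers, 0.04 for glutathione genes and −0.0008 for membrane anchors. All of these values rest on 1 SETDB1 library.

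Genes that act with the transporters were taken from 5 more lists. Of 16 transcription factors and other regulators of drug transporter genes, 12 had a mean of at least 1 CPM. The xenobiotic and bile acid receptor genes NR1I2 and NR1H4 had no count in any library. NFE2L2, which encodes the antioxidant regulator NRF2, was at 159, 103, 83.3 and 150.4 CPM, with a log2 fold change of −0.77 ± 0.26 in ATF7IP knockdown (SE; edgeR adjusted p = 0.375). YBX1 was at 773 to 940.2 CPM and SP1 at 148 to 197 CPM. Of 10 solute carriers of drugs, the exporter SLC47A1 among them, 4 had a mean of at least 1 CPM. SLCO1B3, an organic anion carrier, was at 30.8, 22.1, 21.1 and 35.0 CPM, SLC47A1 at 47.9 to 57.4 and the nucleoside carrier gene SLC29A1 at 88.9 to 108.

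Of 13 drug-metabolising enzymes, 5 had a mean of at least 1 CPM, and CYP3A4, the main oxidase of sorafenib, did not exceed 0.281 CPM. UGT1A1 and UGT1A9 were at 0 counts, which is uncertain because genes of that locus share exons. POR, the electron donor of cytochromes P450, was at 48.0, 61.7, 79.1 and 69.5 CPM, SULT1A1 at 12.1, 15, 12.9 and 7.35 and CYP3A7, which has close copies, at 1.9, 1.25, 4.22 and 3.32. Of 14 glutathione genes, 13 had a mean of at least 1 CPM, led by GSTP1 at 235 to 345 CPM, MGST1 at 183 to 222 and GSTM3 at 106 to 170.3. All but 1 of 10 membrane anchor and trafficking genes had a mean of at least 1 CPM. MSN was at 589, 391, 402 and 545 CPM, EZR at 231, 182, 190.0 and 221, and RAB11A at 119.5, 98.6, 90.5 and 133. MSN and EZR encode moesin and ezrin, which tie transporters to the actin cortex, and both had their lowest levels in the ATF7IP libraries.

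Over the 9 lists of other genes, edgeR called 0 of 78 tested genes in each comparison, and DESeq2 and limma-trend also called 0. Over all tested genes 0.0769%, 0.071% and 0.166% were called, so 0 of 78 is near the background. At an unadjusted p under 0.05 edgeR found 7 in ATF7IP knockdown, 2 in SETDB1 knockdown and 10 between the knockdowns, of 78 each. The shares of all tested genes with such a p were 8.94%, 4.71% and 9.88%. The membrane anchor list had 7 of 9 genes below 0 in ATF7IP knockdown, with a median of −0.33. The glutathione list had 6 above and 7 below, with a median of −0.01, and the regulators of drug transporter genes 5 above and 7 below, with −0.14. Among all 13132 tested genes with a mean of at least 1 CPM, 51.8% were above 0 in that comparison, with a median of 0.01.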

How the data were processed

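HISAT2 2.2.1 and StringTie 2.2.1 appear in the submitters' processing notes beside DESeq2 1.34.0 and hg38, with no role or order. How fragments were counted, on which annotation and whether by strand, is not given in the sources used here. For each gene symbol and library the deposited table gives an expected count (estimated count), a whole number that was not normalized. In Control 489 genes had 4 counts, against 288 with 3 and 265 with 5. From such steps about 4 counts per sequenced fragment were assumed, which no source states. Fragment numbers and exact counting intervals (conditional binomial, 95%) rest on that. Only counts enter these intervals, so they leave out all error but that of counting. Even that error can be larger than given, because reads without molecular identifiers can be PCR copies of 1 molecule. Total counts came to 70236882 for the Control library, 71225287 for ATF7IP shRNA-1, 73791097 for ATF7IP shRNA-2 and 72599883 for the SETDB1 library.

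Library sizes for CPM were scaled by TMM (trimmed mean of M values). The test was the quasi-likelihood test of edgeR 4.0.16, run in R 4.3.3 (filterByExpr with a minimum count of 10, robust dispersions, 3 groups) over 16900 genes, with Benjamini-Hochberg adjustment and a threshold of 0.05. The test was also run on simulated counts. All p-values draw on the spread between the 2 ATF7IP libraries (1 residual degree of freedom, moderated by a median prior of 8.09), on the assumption that the other 2 libraries vary alike. SE and 95% intervals come from that fit. Size rules used log2 CPM with a prior count of 2, a mean of 1 CPM or more, and the same direction in both ATF7IP libraries.

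Exon lengths were the union of exons in the GENCODE v29 basic annotation (GRCh38), used in place of the planned RefSeq exons, and positions and promoter windows were RefSeq's on GRCh38.p14. Of 28278 symbols, 26998 matched RefSeq, and 2 list genes were found under an older symbol. Named were the 8 transporters, ATF7IP and SETDB1, and in each of the 9 other lists the 3 genes with the highest mean CPM and any called gene, and the genes nearest in profile. Other genes named, markers apart, were chosen after their values were seen. The members and lists were chosen with earlier results of these data known. Alternatives were DESeq2 1.42.0, limma-trend (limma 3.58.1), DESeq2 size factors, no filter, counts divided by 4, leaving out libraries, a prior count of 0.5, a 1.5-fold threshold, total counts, and the longest transcript as length.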

Additional observations from a re-analysis of the deposited data

How the results depend on the processing

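No transporter was called under any alternative with a test, and all 136 refitted log2 fold changes of single transporters kept their direction and their side of the threshold. Adjusted p ranged from 0.597 to 1.00 in ATF7IP knockdown, from 0.515 to 1 in SETDB1 knockdown and from 0.135 to 1.00 between them. With 1 ATF7IP hairpin left out no degree of freedom remains for a test. Of 32 log2 differences so computed 29 kept their direction, while in ATF7IP knockdown against Control the difference ran from −0.0096 without hairpin 2 to 0.14 without hairpin 1 for ABCC1, from −0.12 to 0.50 for ABCC2 and from −0.16 to 0.42 for ABCC5.

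The number of all genes called moved with the method. In ATF7IP knockdown it was 13, against 3 with DESeq2 size factors, 160 with DESeq2, 5 with limma-trend, 1 without the filter, 83 with counts divided by 4 and 34 without the SETDB1 library. In SETDB1 knockdown it was 12, against 7 with DESeq2 size factors, 48 with DESeq2, 6 with limma-trend, 18 with counts divided by 4 and 0 without the filter (787 at an unadjusted p under 0.05). Between the knockdowns it was 28, against 11 with DESeq2 size factors, 173 with DESeq2, 9 with limma-trend, 8 without the filter, 89 with counts divided by 4 and 24 without the Control library, a choice made after seeing the data. The causes were not tested.

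The 2-fold rule counted 1 transporter between the knockdowns, against 0 with total counts and 3 at 1.5-fold. Leaving out 1 ATF7IP hairpin gave 1 to 2. Against Control in SETDB1 knockdown it counted 0, and 1 at 1.5-fold. The highest level per length was 8.96 times the lowest, or 8.34 times with the longest transcript as length, and the order of mean levels was then the same. ABCC5 moved most, from 5.37 to 9.55 CPM per kilobase, with ABCC3 then at 11.4. The order in single libraries and the share of ABCC1 to ABCC4 were not computed with that length. No paired analysis was possible because Control and SETDB1 knockdown have 1 library each and the numbers 1 and 2 name hairpins.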
